A study of Homo sapiens with 6 samples.

Results

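Laminins are the secreted glycoproteins on which basement membranes are built, and the genes of 9 laminin chains were followed here: LAMA1, LAMA2, LAMA3, LAMA4, LAMA5, LAMB1, LAMB2, LAMB3 and LAMC1. They were taken by gene symbol from a table of 27685 genes, all 9 were found, and 7 of the 9 passed the filter on low counts along with 14640 genes in all. LAMC3 and LAMB4, laminin chain genes outside this set, were read from the same table for comparison. The cells were Caco-2, an established human colorectal tumour line whose cells take on features of small-intestinal absorptive cells. One group carried the construct hFABP1as, named for an antisense sequence against FABP1 (a cytosolic fatty acid carrier), and is labelled with the genotype FABP1_knockdown. The group set against it was mock-transfected with the empty vector pcDNA3 and is labelled WT. Both groups were grown in the same serum-containing medium, and each had 3 polyA RNA libraries. The labels give neither the number of clones behind a group nor whether its libraries were grown apart. The p-values thus reflect no more than library-to-library spread, which may be technical, and a difference between the transfected lines cannot be told apart from an effect of the construct.

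A laminin molecule is a cross-shaped heterotrimer of an α, a β and a γ chain, joined in the cell through a long coiled coil before it is secreted. The α chain carries the globular C-terminal domains that bind integrins, dystroglycan and the Lutheran glycoprotein (BCAM), while the short arms of full-length chains let laminins polymerise into a sheet. Intestinal epithelium rests on such a sheet: α5 chains with β1 and γ1 form the common laminin of mature epithelia, and the α3 and β3 chains belong to a trimer that anchors epithelial cells through integrin α6β4. In the gut some chains come from the epithelium and others from the mesenchyme under it, and their distribution differs between crypt and villus.

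Library depth ranged between 41768687 and 55153051 counts in the libraries labelled FABP1 antisense, and between 40351394 and 57979037 counts in the vector control libraries. Libraries are named below by the numbers 2, 3 and 4 of the column headers. FABP1 itself was not lower where the label says knockdown: it had 134, 147 and 122 CPM (counts scaled to a common normalised library size) in antisense libraries 2, 3 and 4, against 138, 102 and 121 CPM in the vector control libraries, and the groups overlapped (log2 fold change 0.16, SE 0.12, Benjamini-Hochberg adjusted p = 0.268 by the quasi-likelihood test of edgeR, used throughout). Every direction below is therefore that of the libraries labelled FABP1 antisense, whatever their FABP1 level. The strand setting of the counting is not given, so any reads of the construct counted under FABP1 cannot be told apart from those of the gene's own transcript. At an adjusted p under 0.05, 55.0% of the tested genes were called, 27.7% as higher and 27.3% as lower. Epithelial markers, led by KRT8 and KRT18, summed to between 16472 and 19366 CPM in the antisense libraries and between 14662 and 17976 CPM in the vector control libraries. Non-epithelial markers at 0 counts in all libraries included COL1A2, DCN and THY1 of 10 fibroblast markers and PTPRC of 8 leukocyte markers. They also included CDH5, KDR, TEK, TIE1 and CLDN5 of 7 endothelial markers, and MYOD1, S100B and SOX10 of 9 muscle and Schwann cell markers. Other markers of these lists were expressed, led by PDGFRA, LUM and COL1A1 for fibroblasts and by CD68, LYZ and CD14 for leukocytes. The filter on low counts was passed by 6 fibroblast, 5 leukocyte, 2 endothelial and 3 muscle and Schwann cell markers. The summed levels of these lists were 32.1 to 36.3 CPM in antisense against 39.7 to 42.6 CPM in vector control libraries for fibroblasts, 63.9 to 67.2 against 44.4 to 48.6 CPM for leukocytes, 2.39 to 2.67 against 0.833 to 1.42 CPM for endothelium, and 1.16 to 1.39 against 0.675 to 0.834 CPM for muscle and Schwann cells.

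Of the 9 chains, the 7 that could be tested were all lower in the libraries labelled FABP1 antisense. The 7 log2 fold changes lay between -3.97 (LAMA1) and -0.39 (LAMB1), with a median of -0.77 against 0.008 over all tested genes. For each of the 7 genes every antisense library lay below every vector control library, as it did for 31.0% of all tested genes. The 7 of 7 called lower stand beside 27.3% called lower among all tested genes and 30.8% among 8505 well-expressed genes (mean log2 CPM from 4 upwards, which all 7 chains reached). In that well-expressed set 58.0% were called in either direction and 27.2% as higher. Genes with every antisense library above every control made up 31.7% of all tested genes, and higher calls of at least 2-fold 8.8%. At least a 2-fold fall was seen for 3 of the 7 chains (LAMA1, LAMC1 and LAMA5), against 6.12% of all tested genes. These are values relative to all counted reads of a polyA library, so fewer cells with a transcript and less of it per cell cannot be told apart.

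**Figure D1:**
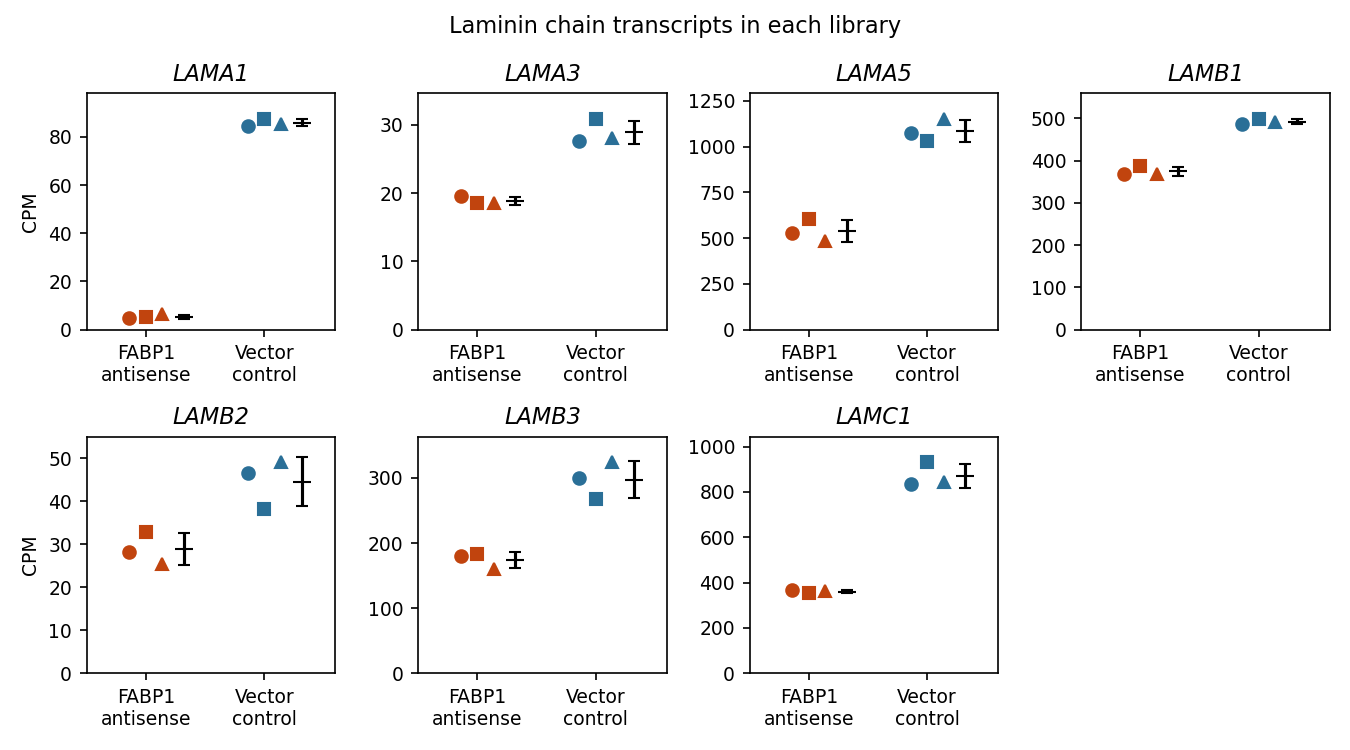
CPM of 7 laminin chain genes in each library, libraries labelled FABP1 antisense at left and vector control at right; circles, squares and triangles are libraries 2, 3 and 4, and the black bar is the mean with its SD (n = 3). The groups do not overlap in any panel, and the antisense libraries are lower in each, most of all for LAMA1 (4.74 to 6.35 against 84.6 to 87.5 CPM).

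Among α chains, LAMA1 showed the largest fall. This chain is known above all from embryonic basement membranes and from a few adult epithelia. LAMA1 had 4.74, 5.26 and 6.35 CPM in antisense libraries 2, 3 and 4, against 84.6, 87.5 and 85.5 CPM in the vector control libraries. The antisense libraries were all more than an order of magnitude below the lowest control library. LAMA1 thus had a log2 fold change of -3.97 (SE 0.11, 95% interval -4.23 to -3.71, adjusted p = 3.79e-08, edgeR), a level 15.7-fold lower, and only 83 of 14640 tested genes had a lower fold change. The transcript was still present, with 787 counts over the 3 antisense libraries and 12116 over the controls.

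LAMA5, which encodes the main α chain of adult epithelial basement membranes, was the most abundant α chain in both groups. It had 530.0, 602 and 487 CPM in antisense libraries 2, 3 and 4, against 1074, 1033 and 1152 CPM in the vector control libraries. The highest antisense library was thus well under the lowest control, and the log2 fold change was -1.01 (SE 0.09, adjusted p = 1.98e-05, edgeR). LAMA3, whose short product is the α chain of the anchoring laminin of hemidesmosomes, was far lower in level and fell less. Its values were 19.6, 18.5 and 18.6 CPM in the antisense libraries, against 27.7, 30.9 and 28.1 CPM in the controls, with a log2 fold change of -0.61 (SE 0.08, adjusted p = 0.000240, edgeR). LAMA3 has long and short transcripts with different starts, and the table gives a single count for all of them.

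The other two α chains were close to absent. LAMA2, the laminin chain of muscle and peripheral nerve and the one mutated in a congenital muscular dystrophy, had 7, 3 and 5 counts in antisense libraries 2, 3 and 4, against 9, 8 and 7 counts in the vector control libraries. LAMA4, a chain of vessel walls and other mesenchymal tissue, had 0, 2 and 3 counts in the antisense libraries and 0 in every control library. Neither gene passed the filter, and in a fit without a filter their unadjusted p-values were 0.346 and 0.110 by edgeR (adjusted p = 0.458 and 0.196), so no difference was detectable at this depth.

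Each β chain gene tested fell, and LAMB1 fell least of the 7 chains. LAMB1, the β chain of the widespread laminins, had 369, 387 and 369 CPM in antisense libraries 2, 3 and 4, against 486, 499 and 492 CPM in the vector control libraries. Values within a group differed little, the groups were apart, and the log2 fold change of -0.39 (SE 0.06) passed the test (adjusted p = 0.000492, edgeR). LAMB3, the β chain known from a trimer with α3, had 179.8, 183 and 160.2 CPM in the antisense libraries, against 299.6, 268 and 324 CPM in the controls (log2 fold change -0.77, SE 0.09, adjusted p = 0.000124, edgeR). LAMB2, a β chain prominent at the neuromuscular junction and in the glomerular filter, had 28.2, 32.9 and 25.4 CPM in the antisense libraries, against 46.4, 38.2 and 49.0 CPM in the controls. Its groups came nearest to each other, and its log2 fold change of -0.63 had the largest error of the 7 (SE 0.12, adjusted p = 0.00250, edgeR). The pseudogene LAMB2P1 resembles LAMB2 but drew 13 counts in the antisense and 8 counts in the control group. LAMB4 had 0 counts in every antisense library and 3, 9 and 0 counts in vector control libraries 2, 3 and 4.

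LAMC1, the γ chain shared by most laminin trimers, had 365, 354 and 362 CPM in antisense libraries 2, 3 and 4, against 837, 931 and 846 CPM in the vector control libraries. The antisense libraries were close to each other and all far below the lowest control. LAMC1 thus had a log2 fold change of -1.27 (SE 0.06, 95% interval -1.42 to -1.13, adjusted p = 7.71e-07, edgeR), and 677 of 14640 tested genes had a lower one. LAMC3 had 19, 3 and 10 counts in the antisense libraries, against 7, 4 and 3 counts in the controls, too few to be tested.

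The sequences at the starts of these genes were read as well. RefSeq (GRCh38.p14) gave windows of 250 bases before to 50 bases after the start for 8 of the 9 chains; LAMA1 was not among them. The build differs from the GRCh37 of the deposited table, so the windows were matched by gene and not by position. Those of LAMC1, LAMA5 and LAMB1 are shown because their chains make up the common epithelial laminin and each fell, though LAMB1 less than the others. Those of LAMA3 and LAMB3 are shown because their chains pair in the hemidesmosomal laminin. Capitals mark matches on either strand to the GC box (GGGCGG, read CCGCCC on the other strand), to the AP-1 site (TGANTCA) or to the TATA box (TATAAA); adjoining GC boxes can overlap. LAMC1 at chr1:183023170-183023469 (plus strand), LAMA5 at chr20:62367263-62367562 (minus strand) and LAMB1 at chr7:108003112-108003411 (minus strand) read as follows.
LAMC1: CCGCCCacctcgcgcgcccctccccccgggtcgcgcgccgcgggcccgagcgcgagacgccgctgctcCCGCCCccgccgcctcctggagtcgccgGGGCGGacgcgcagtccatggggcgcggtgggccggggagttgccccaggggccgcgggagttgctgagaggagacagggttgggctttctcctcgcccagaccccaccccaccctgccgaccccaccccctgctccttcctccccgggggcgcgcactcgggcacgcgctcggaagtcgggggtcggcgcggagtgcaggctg
LAMA5: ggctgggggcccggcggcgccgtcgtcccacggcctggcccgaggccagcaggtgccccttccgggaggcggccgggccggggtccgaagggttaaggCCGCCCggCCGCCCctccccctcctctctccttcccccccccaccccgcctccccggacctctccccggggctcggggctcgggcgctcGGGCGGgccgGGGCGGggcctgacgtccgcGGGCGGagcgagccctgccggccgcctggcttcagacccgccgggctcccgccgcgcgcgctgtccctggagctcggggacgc
LAMB1: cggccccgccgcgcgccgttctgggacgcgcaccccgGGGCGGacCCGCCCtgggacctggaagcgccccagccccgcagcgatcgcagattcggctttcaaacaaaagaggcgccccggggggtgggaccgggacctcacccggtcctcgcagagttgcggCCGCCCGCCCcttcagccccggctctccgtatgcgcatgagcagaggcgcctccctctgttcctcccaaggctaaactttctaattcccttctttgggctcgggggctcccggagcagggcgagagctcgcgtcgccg
The LAMA3 window at chr18:23872770-23873069 (plus strand) and the third LAMB3 window of the table at chr1:209651325-209651624 (minus strand) read as follows.
LAMA3: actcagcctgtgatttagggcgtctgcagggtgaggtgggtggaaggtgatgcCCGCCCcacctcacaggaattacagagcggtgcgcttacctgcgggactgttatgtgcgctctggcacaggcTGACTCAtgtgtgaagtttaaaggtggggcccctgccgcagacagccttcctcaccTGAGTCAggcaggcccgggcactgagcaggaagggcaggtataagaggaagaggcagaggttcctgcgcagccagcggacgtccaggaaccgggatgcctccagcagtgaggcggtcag
LAMB3: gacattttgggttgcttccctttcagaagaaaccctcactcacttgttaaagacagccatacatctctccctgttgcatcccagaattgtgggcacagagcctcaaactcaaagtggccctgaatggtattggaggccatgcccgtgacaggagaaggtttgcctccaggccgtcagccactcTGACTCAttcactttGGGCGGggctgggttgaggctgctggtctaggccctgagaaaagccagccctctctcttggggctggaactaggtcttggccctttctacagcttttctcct
The GC box was found 3 times in the LAMC1 window, 5 times in that of LAMA5 and 4 times in that of LAMB1. These windows were 79.0%, 82.7% and 71.0% G and C, against a median of 58.7% over 35097 windows. Other chains that fell lay nearer that median. The windows of LAMA3 and LAMB3 printed here were 61.7% and 53.7% G and C, and that of LAMB2, not printed, was 58.7%, each with 1 GC box. At least 1 GC box stood in 44.9% of all windows, so such a match is common. The AP-1 letters occurred 2 times in the LAMA3 window and 1 time in that LAMB3 window, and in 7.71% of all windows; the other two LAMB3 windows held none. No window printed here held the TATA box letters, which 11.5% of all windows did. These are matches of letters and say nothing about binding in these cells.

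How the chains stand to each other was compared per kilobase of transcript, since a long transcript yields more counts than a short one. Among the 7 chains, the libraries labelled FABP1 antisense had the order LAMB1, LAMA5, LAMC1 and LAMB3, at means of 65.4, 47.2, 45.7 and 43.0 CPM per kb, where LAMA5 and LAMC1 overlapped, as did LAMC1 and LAMB3. In the vector control the order was LAMC1, LAMA5, LAMB1 and LAMB3, at means of 110.5, 95.1, 86.0 and 73.3 CPM per kb, with no overlap between neighbours. LAMB2, LAMA3 and LAMA1 followed in the antisense libraries at 5.09, 2.44 and 0.564 CPM per kb. The vector control had LAMA1, LAMB2 and LAMA3 in their place, at 8.89, 7.85 and 3.73 CPM per kb. LAMA1 was thus the second α chain of the control cells and the third of the antisense cells. With coding length in place of transcript length LAMC1 stood above LAMB1 in the antisense group, at 74.6 and 69.9 CPM per coding kb, because much of its transcript lies outside the coding part. The length used for LAMA3 was the median of 4 matched transcripts of 5007 to 10661 bases, so its level per kb depends on which of them the cells make. Its place among the 7 chains is the same at either end of these lengths.

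The α chains became more uniformly LAMA5 in the antisense libraries. LAMA5 made up 93.8, 94.7 and 93.3% of α chain transcripts per length in antisense libraries 2, 3 and 4, against 88.4, 87.4 and 89.0% in the vector control libraries. LAMA1 made up 0.992, 0.977 and 1.44% in the antisense libraries, against 8.23, 8.76 and 7.81% in the controls. The share of LAMA3 was 4.89 ± 0.532% in antisense and 3.47 ± 0.338% in control libraries (SD, n = 3 each), although its level fell. Of β chain transcripts, LAMB1 made up 57.7 ± 1.51% in antisense and 51.5 ± 2.66% in control libraries, and LAMB3 37.9 ± 1.29% and 43.8 ± 2.26% in the same order of groups (SD, n = 3 each). The share of LAMB2 overlapped between the groups (4.47 ± 0.392% in antisense and 4.68 ± 0.417% in control libraries, SD, n = 3 each).

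The sums over α and over β chains were compared next, along with LAMC1 as a single gene, which does not stand for the sum over γ chains; that sum is not reported here. Summed β chains stood at 114, 119 and 108 CPM per kb in the antisense libraries, against 167, 160.1 and 174 in the controls, and summed α chains at 49.4, 55.7 and 45.7 CPM per kb, against 106, 103 and 113 in the controls. Summed α levels were thus lower relative to summed β levels in the antisense libraries, with a log2 ratio of -1.18 ± 0.0806, against -0.63 ± 0.0144 in the controls (SD, n = 3 each). The log2 ratio of LAMC1 to summed β levels was -1.30, -1.40 and -1.24 in antisense libraries 2, 3 and 4, against -0.65, -0.44 and -0.70 in the controls. By contrast the log2 ratio of summed α to LAMC1 levels overlapped between the groups (0.13 ± 0.164 in antisense and -0.04 ± 0.139 in control libraries, SD, n = 3 each; exact permutation p = 0.3).

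**Figure D2:**
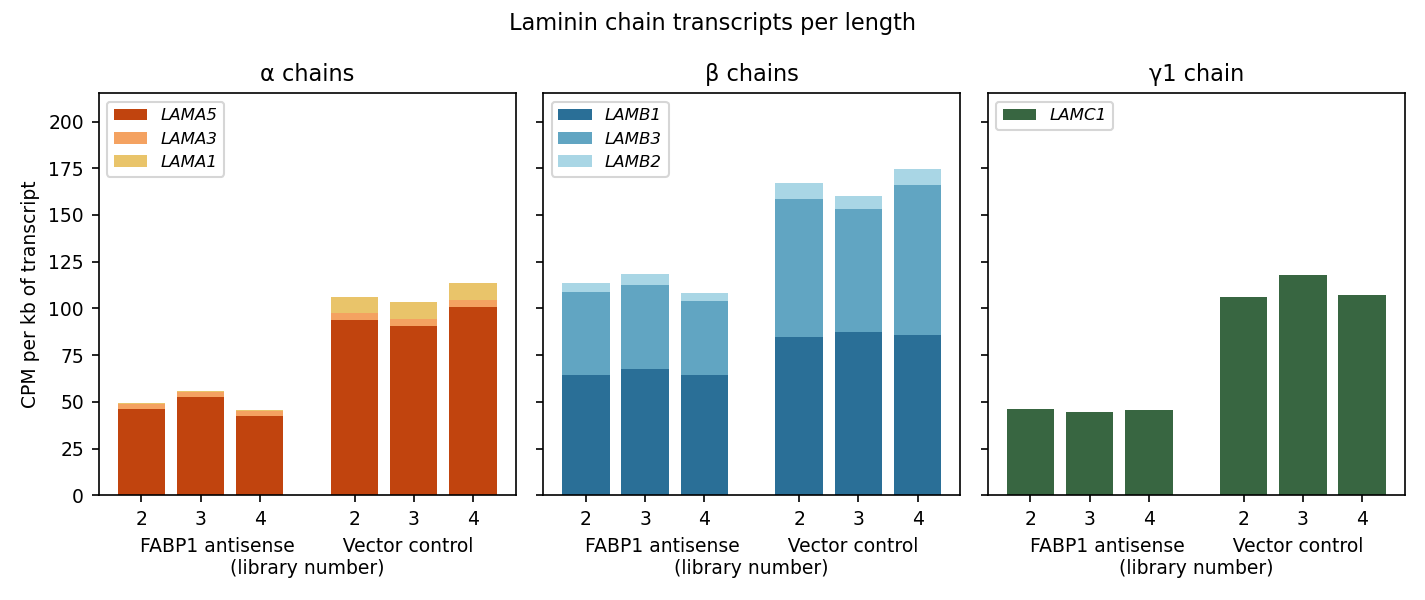
Summed CPM per kb of transcript of α (left) and β chains (middle), and that of LAMC1 (right), 1 bar per library by its number, libraries labelled FABP1 antisense before vector control; colours are genes, and chains too low to see are left out. All bars are shorter in the antisense libraries, and those of the β chains keep more of their height than those of the α chains and LAMC1.

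Each share or ratio with groups apart gave p = 0.1 by the exact two-sided permutation test over libraries, the smallest that 3 against 3 can give, so none could pass a threshold of 0.05 (0.150 after Benjamini-Hochberg adjustment over the 18 shares and ratios computed). Among the 7 chains themselves 21 pairs were compared by the log2 ratio of their CPM, and the groups were apart in 17 of them. The pairs share the same 7 genes, and the share of pairs apart among other genes was not computed. Single genes had groups apart in 31.0% (antisense lower) and 31.7% (antisense higher) of all tested genes, so the count of pairs only describes these chains. The 4 pairs that overlapped were LAMA3 with LAMB2, LAMA3 with LAMB3, LAMA5 with LAMC1, and LAMB1 with LAMB2. The falls of LAMA5 and LAMC1 were not separated by these libraries (difference of log2 changes 0.26, exact permutation p = 0.2, adjusted p = 0.233 over the 21 pairs). LAMB1 fell less than LAMC1, with the groups apart (difference 0.88, exact permutation p = 0.1, adjusted p = 0.124 over the 21 pairs).

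The changes of neighbouring genes were set beside those of the chains. For the 25 tested genes on either side of a chain, the median log2 fold change was -0.48 around LAMA5 on chromosome 20. There 33 of 50 neighbours were called lower and 3 higher, beside 27.3% lower and 27.7% higher over all tested genes. A lower fold change than that of LAMA5 itself was seen for 9 of the 50. The fall of LAMA5 thus stood among falling neighbours, and their part in it was not tested. The median was 0.13 around LAMA1, 0.11 around LAMA3 (-0.02 with 10 genes on either side), 0.32 around LAMB1, 0.04 around LAMB2, -0.15 around LAMB3 and -0.12 around LAMC1. LAMB1 fell although 26 of its 50 neighbours were called higher and 1 lower, and no neighbour of LAMA1 fell as far as LAMA1 did. Neighbours called lower and higher numbered 9 and 16 around LAMA1, 7 and 14 around LAMA3, and 8 and 15 around LAMB2. The numbers in the same order were 19 and 10 around LAMB3, and 17 and 10 around LAMC1.

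**Figure D3:**
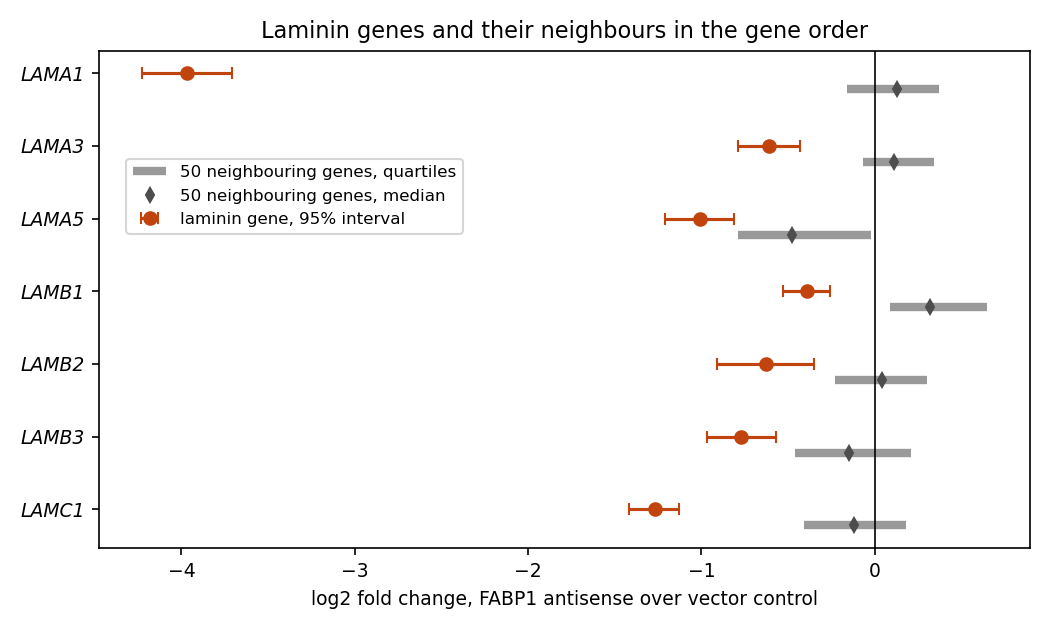
Log2 fold change of each laminin gene (circles with 95% interval, FABP1 antisense over vector control), with the median (diamond) and quartiles (grey bar) of its 50 neighbouring tested genes below it. The neighbours' median is lowest around LAMA5, at -0.48, and the intervals of all 7 chains lie below 0.

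Other components of basement membranes mostly fell as well. Of 16 tested partners of laminin in the basement membrane, 10 fell, 5 rose and 1 did not pass, with a median log2 fold change of -0.93. Over all tested genes 27.3% were called lower and 27.7% higher. The rises include a gene with 0, 0 and 2 counts in the control libraries, which passed the filter only through the antisense group. Type IV collagen forms the second network of the basement membrane, and its genes COL4A1, COL4A6, COL4A5 and COL4A2 had log2 fold changes of -3.51, -3.23, -3.16 and -1.47. COL4A1 averaged 2.40 ± 0.239 CPM in antisense and 27.5 ± 1.51 CPM in control libraries (SD, n = 3 each). The heparan sulfate proteoglycans also fell: HSPG2 (perlecan), which links both networks, had a log2 fold change of -1.66 (SE 0.10, adjusted p = 1.70e-06, edgeR), AGRN (agrin), which binds the laminin coiled coil, one of -1.12, and COL18A1 one of -2.41. NID1, whose product nidogen bridges the γ1 chain to type IV collagen, did not pass although its groups were apart (38.9, 35.7 and 36.4 CPM in antisense libraries, against 32.0, 35.0 and 33.1 CPM in the controls, log2 fold change 0.15, adjusted p = 0.118, edgeR). NID2 had 14, 12 and 0 counts in antisense libraries and 0 in the controls, too few to be tested. The rises included FBLN2 (4.07), the nephronectin gene NPNT (0.43) and FRAS1 (0.32). FBLN2 rose from a very low level, with 12, 12 and 14 counts in vector control libraries 2, 3 and 4.

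Laminin receptor genes went both ways. Of 18 tested receptors and anchoring proteins 7 rose, 7 fell and 4 did not pass, with a median log2 fold change of 0.08. The shares over all tested genes were 27.7% higher and 27.3% lower. The rises among receptors numbered 4 without vector control library 2. Among the integrin α subunits that bind laminin, ITGA3 rose by 1.11 (45.5 ± 3.45 CPM in antisense and 21.1 ± 2.73 CPM in control libraries) and ITGA6, which pairs with β1 or β4, by 0.51 (209 ± 6.09 and 147 ± 12.3 CPM in the same order; SD, n = 3 each). Their partner ITGB1 rose by 0.21 (adjusted p = 0.0317, edgeR), and ITGB4, which with ITGA6 forms the hemidesmosomal receptor, did not pass (65.3 ± 7.85 CPM in antisense and 60.0 ± 5.84 CPM in control libraries, adjusted p = 0.360). The hemidesmosome linker DST and the hemidesmosomal collagen COL17A1 also rose, DST by 1.59 on the log2 scale and COL17A1 by 2.82-fold. Receptors outside the integrins included falls: BCAM, the Lutheran glycoprotein that binds the α5 chain, had a log2 fold change of -1.31 (121 ± 9.90 CPM in antisense and 301 ± 28.6 CPM in control libraries), DAG1 (dystroglycan) one of -0.43 and MCAM one of -1.73. ITGA7, a laminin-binding partner of ITGB1, fell at a low level (log2 fold change -1.11), as did ITGA9 (-0.77), and ITGA1, another partner of ITGB1, did not pass (log2 fold change -0.14, adjusted p = 0.416, edgeR).

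The enzymes that build the laminin-binding sugar of dystroglycan mostly had small changes. Of 18 tested, 9 fell, 2 rose and 7 did not pass, with a median of -0.26, beside 27.3% called lower and 27.7% higher over all tested genes. POMT1, which starts the sugar chain, had a log2 fold change of -1.05, DOLK one of -0.80 and LARGE2 one of -0.44. TMEM5 rose by 0.52. The count of falls was 5 without antisense library 3 or vector control library 4, and 4 without antisense library 4 or vector control library 2. Among proteases that can cleave laminin chains or other matrix proteins, 6 of 10 tested rose and 0 fell, with a median of 1.65. Over all tested genes 27.7% were called higher and 27.3% lower. These rises include genes with only 0 to 3 counts in each control library, which passed the filter only through the antisense group. Such genes could be called only as higher, and the median includes them. MEP1A, a meprin of the intestinal brush border, rose by 3.41, the urokinase gene PLAU by 2.66, CTSS (cathepsin S) by 2.47 and the membrane metalloprotease gene MMP15 by 0.82. BMP1, a protease that processes matrix proteins, did not pass (19.6 ± 1.56 CPM in antisense and 19.6 ± 2.17 CPM in control libraries, SD, n = 3 each). Against a background of 55.0% called, these lists had 93.8% called among basement membrane partners, 77.8% among receptors, 61.1% among dystroglycan enzymes and 60.0% among proteases. The shares of the dystroglycan enzymes and of the proteases were thus near the background.

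**Figure D4:**
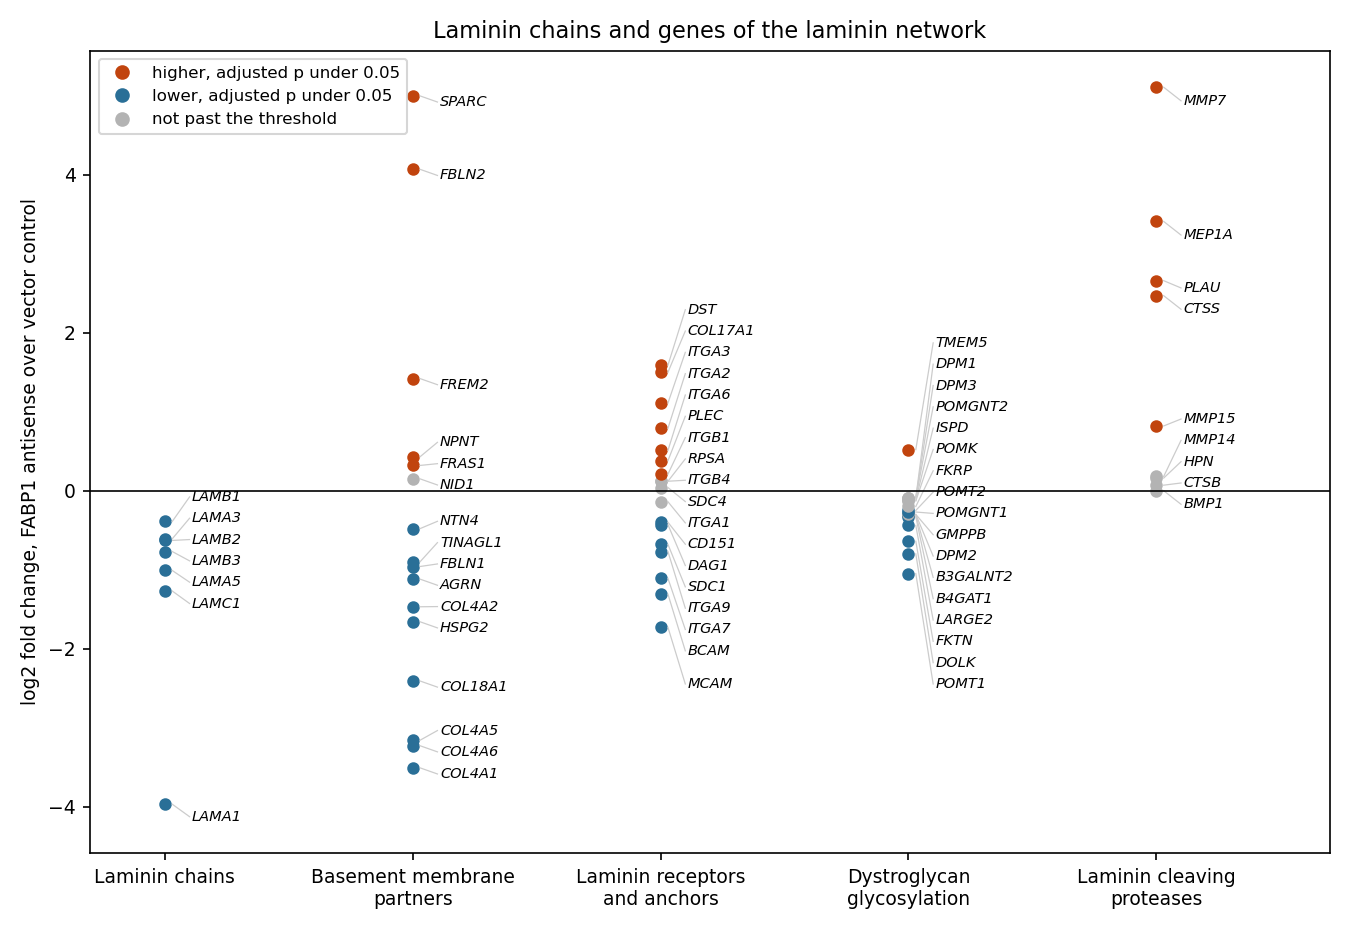
Log2 fold change (FABP1 antisense over vector control) of the tested laminin chains and of the members of 4 lists, 1 point per gene; genes with 0 counts in a group and 1 gene not reported here are left out, and colour gives the call at an adjusted p under 0.05. The type IV collagen genes lie between -3.51 and -1.47 and LAMA1 at -3.97, while receptors spread on either side of 0.

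The genes whose pattern over the 6 libraries was most like that of LAMC1 were SHROOM4, AHCYL1, CRIM1, ZNRF3 and ABCB1, by the Euclidean distance of mean-centred log2 CPM among 11989 genes (distances 0.0768 to 0.144, log2 fold changes -1.36 to -1.21). For LAMA1 they were NBEA, ISM2, ADAM23, CPEB2 and ROR1, at distances of 0.250 to 0.468 and log2 fold changes of -4.18 to -3.69. The distance follows mainly the difference between the groups, which these genes have at a like size. None of the 10 is a laminin chain.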

How the data were processed

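The authors deposited read counts per gene and library, headed as such per the file headers; they were whole numbers with unequal library totals, not normalized. Per the submitters' processing notes the build was GRCh37 and the tools, listed with no roles, included StringTie 1.3.4d, HISAT2 2.1.0, Bowtie2 2.3.4.1, Trimmomatic 0.38 and bcl2fastq. Per the labels' protocols, TRIzol was used for RNA isolation and TruSeq Stranded mRNA chemistry for library preparation. For the strand setting of the counting, the sources used here give nothing. Reads of overlapping antisense genes may therefore be mixed, and LAMA5-AS1 is listed at 0 counts. The 12 other per-library columns were not used here. Columns name the group and the numbers 2, 3 and 4, while the labels number replicates 1, 2 and 3, so columns were matched to groups only.

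With edgeR 4.0.16 (R 4.3.3), counts were filtered by filterByExpr, scaled by TMM and compared with the quasi-likelihood test, with Benjamini-Hochberg adjustment over 14640 genes and a threshold of 0.05. The standard error was the absolute log2 fold change over the square root of F. The test was run on simulated counts with 200 changed genes. Far more genes were called in these data, so that check does not cover a change this wide. CPM used TMM library sizes. Within groups, chi-square over degrees of freedom was 14.3 to 41.2 between libraries, above counting noise. Lengths were medians of GENCODE v29 transcripts matched by RefSeq accession. Gene order came from RefSeq GRCh38.p14, which placed 99.8% of tested genes, and only the printed promoter windows carry its coordinates. Alternatives were other scalings, filters, DESeq2 1.42.0, leaving out each library, a replicate block, and other lengths and windows. The laminin chains and the lists were chosen with earlier results of these data known. Named list members were up to 4 called genes with the largest changes in each direction at a mean log2 CPM of at least 1, plus 12 core partners; NID2 was below the filter, and BMP1 and ITGA1 were named after their values were seen. A few genes are not reported here; counts over lists and over all genes include them.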

Additional observations from a re-analysis of the deposited data

How the results depend on the processing

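Each of the 7 tested laminin chains kept its fall and passed the threshold under all 12 alternative fits (other scalings, filters, DESeq2, each library left out, the replicate block). LAMA1 ranged over log2 fold changes of -4.10 to -3.88, LAMC1 over -1.31 to -1.23, LAMB1 over -0.42 to -0.38 and LAMB2, with the highest adjusted p (0.0137), over -0.73 to -0.54. Falls among dystroglycan enzymes numbered 5 with the replicate block, against 9 without it; leaving out 1 library gave 4 to 9 falls there and 4 to 7 rises among receptors; the cause was not tested. Correlations of deviations between groups were 0.062, -0.275 and -0.483 for the shared header numbers 2, 3 and 4, and -0.334 to 0.49 for unlike numbers. They gave no sign of pairing by header number, but 3 libraries per group cannot exclude it. With the block 3355 genes were called higher and 3306 lower, against 4062 and 3992. The neighbours' median around LAMA3 reversed to -0.02 with 10 genes on either side. Of 385 alternative values, 378 kept their direction and call, or stayed within the spread. Depth limits LAMA2, LAMA4, LAMB4 and LAMC3.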
